A study of Solanum lycopersicum with 15 samples.

Results

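In tomato (Solanum lycopersicum) roots, 135 genes were lowest when iron was given back together with urea, out of 34075 genes in the table. Their level with urea was a median of 56.4% of that in the next lowest regime and 44.6% of the mean of the 12 libraries without urea. They were picked by FPKM, the number of fragments per kilobase of transcript relative to all fragments mapped in a library. Of the 13750 genes whose mean reached 5 FPKM in any regime, 4612 had their lowest mean of log2(FPKM + 1) with urea. In 1810 of these the gap between urea and the next regime was the largest of the gaps between neighbouring regime means. It was at least 1.5-fold on this scale in 173, and in 135 of them the highest urea library also lay below the lowest of the other 12. Every urea difference below was therefore used to choose the genes and is given as a description, with no test.

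The 15 libraries of polyadenylated RNA came from roots in 5 regimes, with 3 libraries each. Control roots (-Fe-N) had neither iron nor nitrogen. Iron alone (+Fe-N) was a resupply of iron without nitrogen, and the other regimes added nitrate (+Fe+Ni), ammonium (+Fe+A) or urea (+Fe+U) to the iron. Cultivar, plant age, doses, times and whether replicates came from separate plants are not given in the sources used here, so the p-values measure the spread between these libraries, which may be technical.

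Roots take up urea through transporters of the plasma membrane and split it with urease, a nickel enzyme, into carbon dioxide and ammonia, which glutamine synthetase then assimilates. Nitrate has to be reduced by nitrate reductase and nitrite reductase before it reaches the same step, and it also acts as a signal in roots. Tomato and other non-grass plants acquire iron by reducing ferric iron at the root surface and importing ferrous iron. No role can be given to single members of the set, because the table pairs none of its identifiers with a name. The genes are therefore described by identifier, level and pattern.

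FPKM sums of the libraries lay between 546848 and 589451, and relative depths read from the steps of low values lay between 0.875 and 1.27, with urea at 1.02 to 1.11. Absolute depth is unknown. Size factors, the median ratio of a library to the mean of all libraries gene by gene, were 0.941, 0.958 and 0.970 in urea replicates 1, 2 and 3. Those of the other libraries were higher, at 0.972 to 1.07. Dividing by size factors kept 91 of the 135 members. Urea replicate 1 stood apart from the other urea libraries in these genes. It was the lowest of the 3 urea libraries in 105 of 135 members (77.8%), against 54.5% of all 4612 genes whose mean was lowest with urea. It was also the highest in 193 of the 255 genes that the mirrored rule finds highest with urea. No share over all genes whose mean was highest with urea was counted beside this. Without urea replicate 1 the rule selected 87 genes, of which 74 were among the 135, and the median gap of the 135 fell from 0.75 to 0.61. Without urea replicate 2 or 3 it selected 210 and 222 genes, which included 127 and 126 of the 135. With a library left out, fewer libraries of its regime must clear the others, so the condition of no overlap is easier. Genes lowest with ammonium alone went from 12 to 21, 43 and 21 without ammonium replicate 1, 2 and 3. Those lowest with iron alone went from 16 to 44, 16 and 38 without replicate 1, 2 and 3 of that regime.

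**Figure D1:**
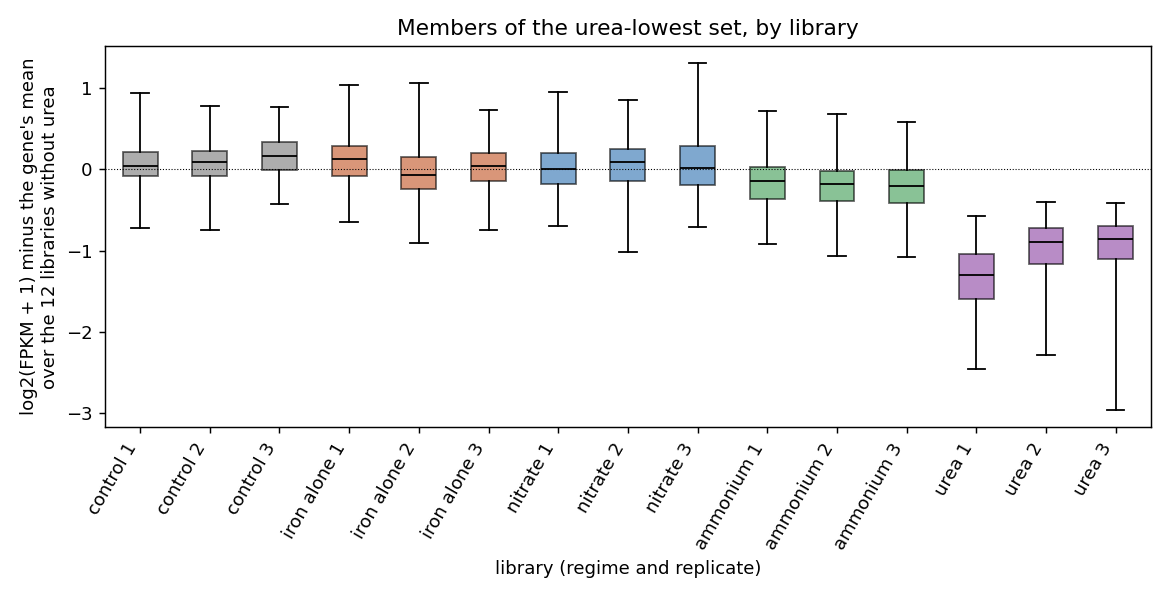
Each box covers the 135 members in 1 library, as log2(FPKM + 1) minus the gene's mean over the 12 libraries without urea (box: quartiles and median; whiskers: lowest and highest member). Medians lay at -1.30, -0.89 and -0.85 in urea replicates 1, 2 and 3, and the 3 ammonium libraries had the lowest medians of the other 12, at -0.15 to -0.21.

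Members differed in the size of the gap. The distance to the next regime on the log2(FPKM + 1) scale ran from 0.59 to 1.71 with a median of 0.75 and quartiles of 0.64 and 0.89. It was at least 1 in 16 members and under 0.7 in 53. On the FPKM scale, 38 members stood below 50% of the next lowest regime, and the share ran from 19.3% to 66.6%. Its median was 50.5% in the 57 members whose next regime was under 10 FPKM, 59.0% in the 68 from 10 to 100 FPKM and 65.6% in the 10 at 100 FPKM or more. The threshold on log2(FPKM + 1) asks for a deeper drop in FPKM at low levels. The clear distance between the highest urea library and the lowest other library was a median of 0.30 on the log2 scale, and it was as small as 0.00042. Median log2 differences of the members were -1.11 from control, -1.05 from iron alone, -1.04 from nitrate and -0.85 from ammonium. Over all 18889 genes tested, the medians of the same differences were -0.09, -0.10, -0.06 and -0.07.

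The largest gap belonged to Solyc05g052890.ITAG4.0 on chromosome 5. It stood at 1.21, 1.48 and 2.3 FPKM in the 3 urea libraries, against 8.17, 7.54 and 7.19 with ammonium. Its values were 13.3, 10.7 and 14.3 FPKM in control roots, 20.7, 11.3 and 6.2 with iron alone and 15.1, 15.1 and 11.3 with nitrate. Ammonium was thus nearest to urea, and iron alone was the most uneven regime for this gene. Solyc01g066260.2.ITAG4.0 on chromosome 1 had the next largest gap, with 0.689, 1.54 and 1.1 FPKM under urea. Ammonium gave 5.37, 7.0 and 4.89 FPKM and nitrate 7.16, 8.66 and 3.95. Control roots gave 6.78, 6.54 and 9.12 FPKM and iron alone 15.5, 5.32 and 8.88, so that these regimes overlapped one another while urea lay below them all. Urea replicate 1 was the lowest library of each gene.

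Abundant transcripts were also among the members. Solyc05g010420.ITAG4.0 on chromosome 5 was the most abundant, at 505, 657 and 752 FPKM with urea. It reached 1239, 1222 and 1199.7 FPKM in control roots and 1598, 1464 and 1338 with iron alone. Nitrate libraries held 1281, 1185 and 1249 FPKM and ammonium libraries 1433, 1407 and 1217, and iron alone lay above control and nitrate with no overlap. Solyc01g099840.ITAG4.0 on chromosome 1 followed, at 217, 369 and 370.1 FPKM with urea. Its values were 627, 689 and 624 FPKM in control roots, 817, 777 and 654 with iron alone and 862, 854 and 735 with ammonium. Nitrate gave the highest values, 1109, 1125 and 1216 FPKM, with no overlap with any other regime. In this gene nitrate and urea stood at opposite ends of the range.

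**Figure D2:**
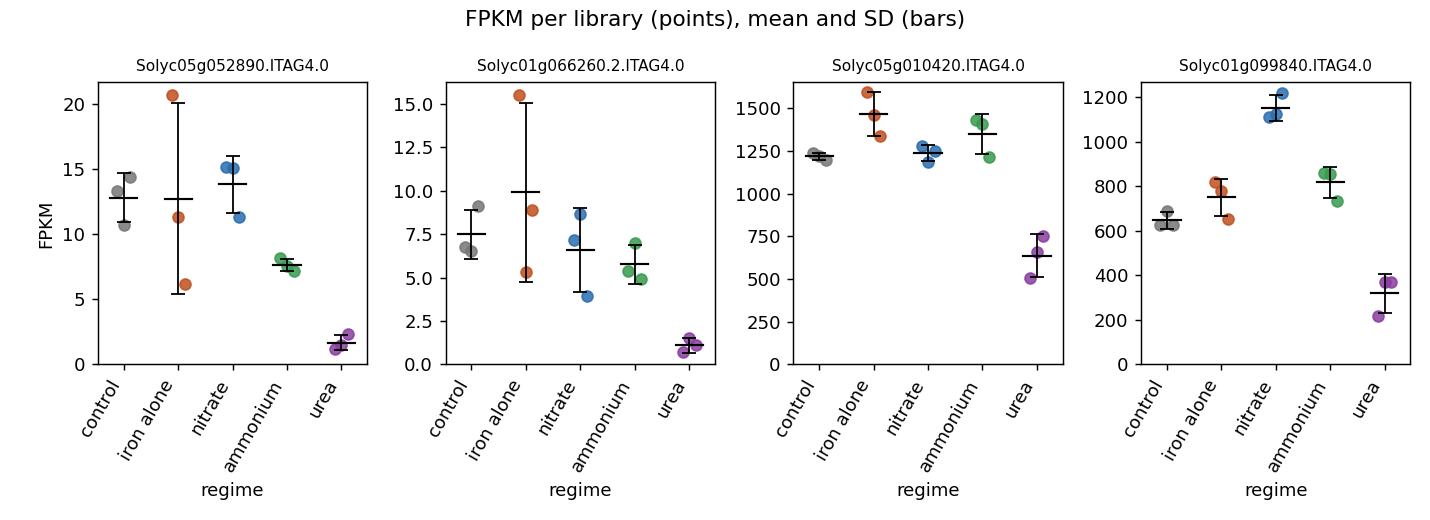
FPKM (linear axis from 0) of the members with the largest gaps (the first pair of panels) and the highest levels (the second pair) in each library, with the mean and SD of each regime (n = 3). In all 4 panels the urea points lie below every other point, and urea replicate 1 is the lowest library in each.

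At the edge of the rule, Solyc07g052470.ITAG4.0 was the member with the smallest gap, 0.59 on the log2 scale, with a urea mean of 13.7 FPKM against 20.9 in the next regime. Solyc04g080580.ITAG4.0 fell just outside with a gap of 0.58, at 24.1 against 36.7 FPKM. In all, 568 genes met every other condition and failed the size of the gap, and another 38 failed only because a urea library overlapped another library. A further 27 had the gap and no overlap but a larger gap elsewhere among the regimes.

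**Figure D3:**
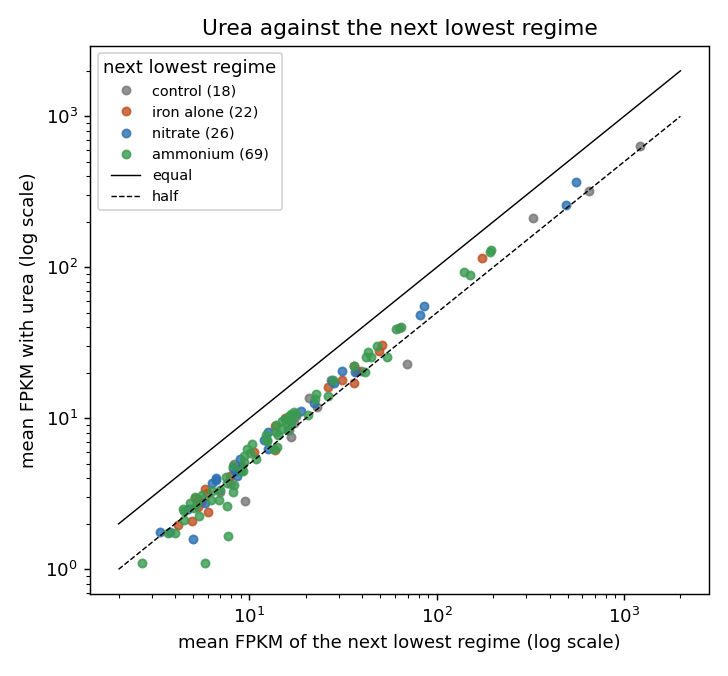
Mean FPKM with urea against the mean FPKM of the next lowest regime for the 135 members (both axes logarithmic), coloured by which regime that is. 38 points lie below the dashed line at 50%. Points spread farther below the line of equal values at low levels, down to 19.3% of a next regime under 10 FPKM, than where the next regime reached 100 FPKM, where the lowest is 49.3%.

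Members were near other genes in their typical abundance. Their mean over the 12 libraries without urea had a median of 15.9 FPKM with quartiles of 8.84 and 33.6, against 15.4, 8.16 and 33.4 for all 13750 genes that reached 5 FPKM. There were 11 members at 100 FPKM or more and 42 under 10 FPKM. No member was listed at 0 in any library, and 4 had a urea value under 1 FPKM. Together the 135 members held 1.19% ± 0.022 to 1.43% ± 0.023 of the FPKM sum in the regimes without urea and 0.64% ± 0.12 with urea (SD, n = 3). With ammonium the share was the lowest of the 4, at 1.19% ± 0.022, while control, iron alone and nitrate lay between 1.42% and 1.43%. These are whole roots, so fewer cells of a type and less RNA per cell cannot be told apart.

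Replicates of urea were more spread in the members than in other genes. The median SD of log2(FPKM + 1) over the urea libraries was 0.31 for members and 0.13 for all genes of 5 FPKM or more. For the other regimes the medians were 0.14 to 0.18 for members and 0.11 to 0.15 for all such genes. Their pairwise Pearson correlation over the 12 libraries without urea averaged 0.13, against 0.026 for all genes of 5 FPKM or more. This is a description only, since the libraries share regimes and scaling.

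The rule did not use which of the other regimes came next. Ammonium was the lowest of the remaining 4 in 69 of 135 members (51.1%) and the highest in 11 (8.15%). Among all 13750 genes of 5 FPKM or more it was lowest in 26.7% and highest in 27.4%. Among the 4612 genes with the lowest mean in urea it was lowest of the rest in 37.8% and highest in 17.8%. Control roots were the highest of the 4 in 52 members (38.5%), against 28.4% of the 13750 genes and 33.5% of the 4612. Nitrate was the highest in 37 members (27.4%), against 17.2% of the 13750 genes and 21.2% of the 4612. Nitrate and ammonium both lay below control and iron alone in 49 members (36.3%, against 28.4% of the 13750 genes). The highest and lowest of the 4 means lay a median of 0.55 apart on the log2 scale in members and 0.37 in the 13750 genes. The rule limits this distance in members, since no gap between neighbouring regimes may exceed the gap to urea. Without urea replicate 1, ammonium was next lowest in 39 of the 87 genes selected (44.8%).

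**Figure D4:**
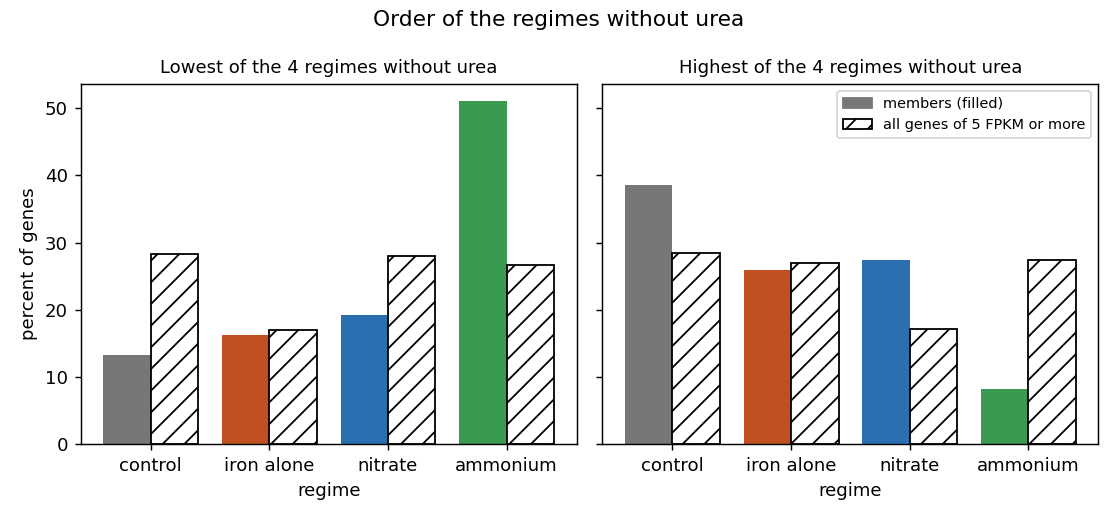
Percent of genes in which each regime had the lowest (left) or highest (right) mean of the 4 regimes without urea. Filled bars are the 135 members and hatched bars all 13750 genes of 5 FPKM or more. Ammonium was lowest in 51.1% of members and 26.7% of all genes.

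Differences among the 4 regimes without urea were tested in 6 comparisons with limma on log2(FPKM + 1), over the 18889 genes that reached 1 FPKM in 3 or more libraries. A gene was called at a Benjamini-Hochberg adjusted p under 0.05 over all of them. The fit used all 15 libraries. Urea libraries thus entered the standard errors and p-values, though not the differences, and members were more spread with urea than other genes. The rule did not use these differences directly, apart from keeping every gap between neighbouring regimes smaller than the gap to urea. It did ask for the lowest mean with urea. Among the 4612 genes with that alone, ammonium was lowest of the rest in 37.8%, against 26.7% of the 13750. Calls were not counted over the 4612 genes, so their directions in members have no background with that condition. All 135 members were among the genes tested, as were 13710 of the 13750 genes of 5 FPKM or more, the level that the rule asks of members. At least 1 of the 6 comparisons called 59 members (43.7%), against 33.9% of all genes tested and 41.5% of those at 5 FPKM or more, and the other 76 were called in none. The comparisons share libraries and are not independent of each other.

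Members were more often lower than higher with ammonium than in control roots. Of the 38 called (28.1%), 36 were lower (26.7%) and 2 higher (1.48%). The comparison called 20.8% of all genes tested, with 9.89% higher and 10.9% lower. Among tested genes of 5 FPKM or more it called 26%, with 12.8% higher and 13.2% lower. The median log2 change was -0.25 for members and -0.02 for all genes tested, and 107 of 135 members had a negative change. Negative changes were not counted over all genes. Solyc08g074690.ITAG4.0 on chromosome 8 held 25.6, 24.5 and 21.5 FPKM in control roots and 11.3, 6.62 and 10.1 with ammonium (log2 change -1.29, standard error 0.35, limma adjusted p = 0.018). Its urea libraries held 5.77, 4.61 and 6.61 FPKM. Solyc07g017220.ITAG4.0 on chromosome 7 measured 100.2, 110.5 and 99.3 FPKM without either nutrient and 40.4, 40.2 and 48.5 with ammonium (log2 change -1.25, standard error 0.19, limma adjusted p = 0.00053). With urea it was at 16.5, 35.6 and 29.8 FPKM. In both genes the control and ammonium libraries did not overlap. The members higher with ammonium than in control roots were Solyc02g086980.ITAG4.0 (log2 change 0.71, standard error 0.21, limma adjusted p = 0.027) and Solyc04g080010.ITAG4.0 (log2 change 0.54, standard error 0.17, limma adjusted p = 0.037).

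The number of calls for ammonium against control moved with single libraries. It was 24, 21 and 22 without ammonium replicate 1, 2 and 3, and 23, 20 and 19 without control replicate 1, 2 and 3, where the fits called 14.5% to 18.2% of all genes. Members' shares were then 14.1% to 17.8%. They lay below the share of all genes without ammonium replicate 2 (15.6% against 18.2%) or 3 (16.3% against 16.6%) and without control replicate 2 (14.8% against 15.9%) or 3 (14.1% against 14.5%). Members lower with ammonium numbered 22, 20 and 22, and 23, 19 and 19, which is 14.1% to 17.0% against 7.23% to 9.36% of all genes. For Solyc08g074690.ITAG4.0 the call did not survive leaving out ammonium replicate 2 (adjusted p = 0.07) or control replicate 1 or 2 (0.054 and 0.051), and its adjusted p spanned 0.0052 to 0.07 across alternatives. For Solyc02g086980.ITAG4.0 it did not survive leaving out ammonium replicate 2 or 3 (adjusted p = 0.069 and 0.086) or control replicate 1 or 3 (0.1 and 0.083), and its adjusted p spanned 0.014 to 0.1 across alternatives. For Solyc04g080010.ITAG4.0 it was lost with equal FPKM totals or no filter (adjusted p = 0.054 in both), when ammonium replicate 1 or 3 was dropped (0.11 in both) and when any control library was (0.082 to 0.089), and its adjusted p spanned 0.005 to 0.11 across alternatives.

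Against iron alone, a comparison that shares the ammonium libraries, 26 members were called (19.3%), with 24 lower (17.8%) and 2 higher (1.48%) with ammonium. The comparison called 13.9% of all genes tested, with 6.29% higher and 7.58% lower. Among tested genes of 5 FPKM or more it called 17.4%, with 8.07% higher and 9.37% lower. Members had a median log2 change of -0.19 and all genes tested one of -0.03. Solyc04g074180.4.ITAG4.0 on chromosome 4 had 10.3, 9.88 and 9.79 FPKM with iron alone and 3.21, 4.41 and 3.44 with ammonium (log2 change -1.24, standard error 0.14, limma adjusted p = 0.00011). With nitrate it lay between these, at 6.5, 6.17 and 6.18 FPKM, and with urea at 1.21, 1.89 and 2.13. Solyc03g116710.ITAG4.0 on chromosome 3 went from 10.8, 10.6 and 11.5 to 5.51, 4.41 and 5.4 FPKM (log2 change -0.98, standard error 0.21, limma adjusted p = 0.0087). Its urea values were 1.66, 3.54 and 3.81 FPKM, so that both genes stepped down from iron alone through nitrate and ammonium to urea in their means.

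The 2 members higher with ammonium than with iron alone are those already named against control. Solyc02g086980.ITAG4.0 on chromosome 2 rose from 8.04, 8.6 and 7.04 to 12.6, 14.9 and 15.8 FPKM (log2 change 0.79, standard error 0.21, limma adjusted p = 0.022) and stood at 2.62, 5.1 and 4.71 with urea. Solyc04g080010.ITAG4.0 on chromosome 4 rose from 38.6, 37.5 and 32.8 to 60.4, 50.2 and 63.0 FPKM (log2 change 0.65, standard error 0.17, limma adjusted p = 0.022) and stood at 15.2, 24.9 and 27.1 with urea. In these genes ammonium and urea lay on opposite sides of iron alone in every library. The count of 26 became 9 without ammonium replicate 3, all lower, and 12, 16 and 16 without iron-alone replicate 1, 2 and 3, of which 11, 14 and 16 were lower. The share called was 6.67% of members against 8.85% of all genes without ammonium replicate 3, and 8.89%, 11.9% and 11.9% against 10.8%, 10.3% and 10.1% without the iron-alone libraries. The excess over all genes was thus not seen without ammonium replicate 3 or iron-alone replicate 1. In the lower direction the shares of these 4 fits were 6.67%, 8.15%, 10.4% and 11.9% of members and 4.55%, 5.21%, 6.33% and 5.18% of all genes. Solyc02g086980.ITAG4.0 missed the threshold on dropping ammonium replicate 2 or 3 (adjusted p = 0.054 and 0.079) or replicate 1 or 3 of iron alone (0.051 and 0.073), and its adjusted p spanned 0.013 to 0.079 across alternatives. Solyc04g080010.ITAG4.0 missed it on dropping ammonium replicate 1 or 3 (adjusted p = 0.075 and 0.08) or replicate 3 of iron alone (0.074), and its adjusted p spanned 0.0032 to 0.08 across alternatives.

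Set against each other, nitrate and ammonium differed in 13 members, and all 13 were higher with nitrate (9.63%). The comparison called 7.06% of all genes tested, with 3.38% higher and 3.67% lower. Among tested genes of 5 FPKM or more it called 8.99%, with 4.3% higher and 4.69% lower. At an unadjusted limma p under 0.05, 41 members were higher and 4 lower with nitrate. No such count was made over all genes, so this split has no background to be read against. The median log2 difference was 0.17 for members and -0.02 for all genes tested. Solyc01g080280.ITAG4.0 on chromosome 1 reached 111, 92.6 and 142 FPKM with nitrate and 39.9, 35.1 and 48.6 with ammonium (log2 change 1.45, standard error 0.19, limma adjusted p = 0.00031). Solyc05g005870.ITAG4.0 on chromosome 5 reached 101, 88.2 and 108 and 39.9, 39.2 and 40.7 FPKM (log2 change 1.28, standard error 0.13, limma adjusted p = 3.4e-05). With urea these genes stood at 14.9, 21.8 and 14.4 FPKM and 15.1, 23.1 and 23.1 FPKM. Nitrate was their highest regime and urea their lowest, with no overlap between nitrate and any other regime. Fitted to the 12 libraries without urea, the comparison called 27 members, of which 26 were higher and 1 lower with nitrate. That is 20% of members against 6.72% of all genes. With only nitrate and ammonium fitted it called 20, all higher (14.8% against 4.19%).

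Between nitrate and iron alone 18 members differed (13.3%), with 10 higher (7.41%) and 8 lower (5.93%) with nitrate. The comparison called 11.7% of all genes tested, with 4.58% higher and 7.08% lower. Among tested genes of 5 FPKM or more it called 14.8%, with 5.93% higher and 8.86% lower. The median log2 change was -0.05 for members and for all genes. The largest rises were those of Solyc01g080280.ITAG4.0, from 36.2, 30.1 and 42.1 FPKM with iron alone (log2 change 1.64, standard error 0.19, limma adjusted p = 8.5e-05), and Solyc05g005870.ITAG4.0, from 37.8, 36.7 and 37.8 FPKM (log2 change 1.38, standard error 0.13, limma adjusted p = 1.2e-05). Solyc02g068170.1.ITAG4.0 on chromosome 2 fell from 147, 124 and 123 to 61.9, 89.9 and 65.2 FPKM (log2 change -0.87, standard error 0.21, limma adjusted p = 0.017). Solyc09g089780.ITAG4.0 on chromosome 9 fell from 49.3, 51.2 and 45.4 to 33.3, 28.4 and 23.3 FPKM (log2 change -0.77, standard error 0.15, limma adjusted p = 0.004). Urea held these at 14.5, 23.9 and 30.0 FPKM and 13.2, 17.5 and 20.7 FPKM. Without iron-alone replicate 1 or nitrate replicate 1 or 3 the members lower with nitrate numbered 5 in each case (3.70%, against 4.62%, 6.96% and 3.59% of all genes). Without the same 3 libraries Solyc02g068170.1.ITAG4.0 was no longer called (adjusted p = 0.063, 0.057 and 0.071; range 0.0032 to 0.071).

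Iron alone against control called few members, at 7 of 135 (5.19%), of which 6 were lower (4.44%) and 1 higher (0.741%) with iron. The comparison called 6.4% of all genes tested, with 2.97% higher and 3.43% lower. Among tested genes of 5 FPKM or more it called 8.1%, with 3.74% higher and 4.36% lower. The one higher was Solyc02g068170.1.ITAG4.0, at 69.3, 71.5 and 68.3 FPKM in control roots and 147, 124 and 123 with iron alone (log2 change 0.90, standard error 0.21, limma adjusted p = 0.024). Solyc02g094300.ITAG4.0 on chromosome 2 fell from 7.88, 12.3 and 11.7 to 5.82, 6.35 and 4.38 FPKM (log2 change -0.83, standard error 0.17, limma adjusted p = 0.015). Solyc01g109150.4.ITAG4.0 on chromosome 1 fell from 9.7, 8.5 and 12.1 to 5.42, 3.77 and 6.78 FPKM (log2 change -0.83, standard error 0.20, limma adjusted p = 0.031). With urea these genes were at 2.55, 3.06 and 2.74 and at 2.16, 3.45 and 2.15 FPKM. Dropping control replicate 1, 2 or 3 left 4, 2 and 1 called members, and dropping either of the first 2 iron-alone libraries left 2, all lower with iron. These are 0.741% to 2.96% of members, where 2.83% to 3.98% of all genes were called.

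Among these genes, Solyc02g068170.1.ITAG4.0 lost its call without control replicate 1, 2 or 3 (adjusted p = 0.063, 0.066 and 0.079) or replicate 1 or 2 of iron alone (0.094 and 0.06), and its adjusted p spanned 0.0066 to 0.094 across alternatives. Solyc02g094300.ITAG4.0 lost it with only these regimes fitted (adjusted p = 0.072) and on dropping replicate 2 or 3 of the control (0.066 and 0.067), and its adjusted p spanned 0.0077 to 0.072 across alternatives. Solyc01g109150.4.ITAG4.0 lost it with only these regimes fitted (adjusted p = 0.083), on dropping replicate 1 or 3 of the control (0.071 and 0.13) and on dropping replicate 1 or 2 of iron alone (0.081 and 0.11), and its adjusted p spanned 0.017 to 0.13 across alternatives.

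In the comparison of nitrate with control, which adds both iron and nitrate, 20 members were called (14.8%), with 9 higher (6.67%) and 11 lower (8.15%). The comparison called 15.6% of all genes tested, with 6.92% higher and 8.65% lower. Among tested genes of 5 FPKM or more it called 20%, with 9.13% higher and 10.9% lower. In this fit to all 15 libraries the members' share was near that of all genes tested and below that of genes of 5 FPKM or more. Fitted to the 12 libraries without urea, the comparison called 21.5% of members and 15.1% of all genes. With only nitrate and control fitted these shares were 18.5% and 13.8%. After quantile normalization 13 members were higher (9.63%, against 8.44% of all genes) and 10 lower (7.41%, against 8.02%). Solyc04g079910.ITAG4.0 on chromosome 4 rose from 8.56, 7.11 and 8.37 to 17.7, 16.7 and 18.5 FPKM (log2 change 1.05, standard error 0.30, limma adjusted p = 0.028), and urea gave 1.33, 5.29 and 4.32. Solyc03g005980.ITAG4.0 on chromosome 3 rose from 25.8, 22.0 and 21.2 to 36.9, 52.1 and 38.6 FPKM (log2 change 0.85, standard error 0.25, limma adjusted p = 0.034). Solyc07g017220.ITAG4.0 fell from its 100.2, 110.5 and 99.3 FPKM in control roots to 54.5, 53.7 and 58.6 (log2 change -0.88, standard error 0.19, limma adjusted p = 0.0068). Solyc03g007760.ITAG4.0 on chromosome 3 fell from 72.0, 71.8 and 56.8 to 33.3, 33.3 and 42.8 FPKM (log2 change -0.86, standard error 0.22, limma adjusted p = 0.016). The first pair thus stood higher with nitrate than in control roots and lower with urea, while the second pair was below control roots in both.

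The count of 20 for nitrate against control became 12 and 11 without control replicate 1 and 3, and 12 without nitrate replicate 2. Members' shares were 8.89%, 8.15% and 8.89% there, below the 12.2%, 10.7% and 11.2% of all genes called. Those higher numbered 6 and 5 without control replicate 1 and 3 and 5 without nitrate replicate 3. Their shares were 4.44%, 3.7% and 3.7%, against 5.35%, 4.94% and 5.5% of all genes. Those lower numbered 6, 6 and 5 without control replicate 1, control replicate 3 and nitrate replicate 2. These were 4.44%, 4.44% and 3.7%, against 6.86%, 5.74% and 6.09% of all genes. Solyc04g079910.ITAG4.0 lost its call without any single library of either regime (adjusted p = 0.058 to 0.09) and with a pseudocount of 0.1 (0.06), and its adjusted p spanned 0.002 to 0.09 across alternatives. Solyc03g005980.ITAG4.0 lost it with no filter (adjusted p = 0.052), without control replicate 1, 2 or 3 (0.052, 0.091 and 0.11) and without nitrate replicate 2 or 3 (0.13 and 0.059), and its adjusted p spanned 0.013 to 0.13 across alternatives. Solyc03g007760.ITAG4.0 lost it without control replicate 1 or 2 (adjusted p = 0.057 and 0.058) and without nitrate replicate 1 or 2 (0.053 and 0.061), and its adjusted p spanned 0.0029 to 0.061 across alternatives.

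**Figure D5:**
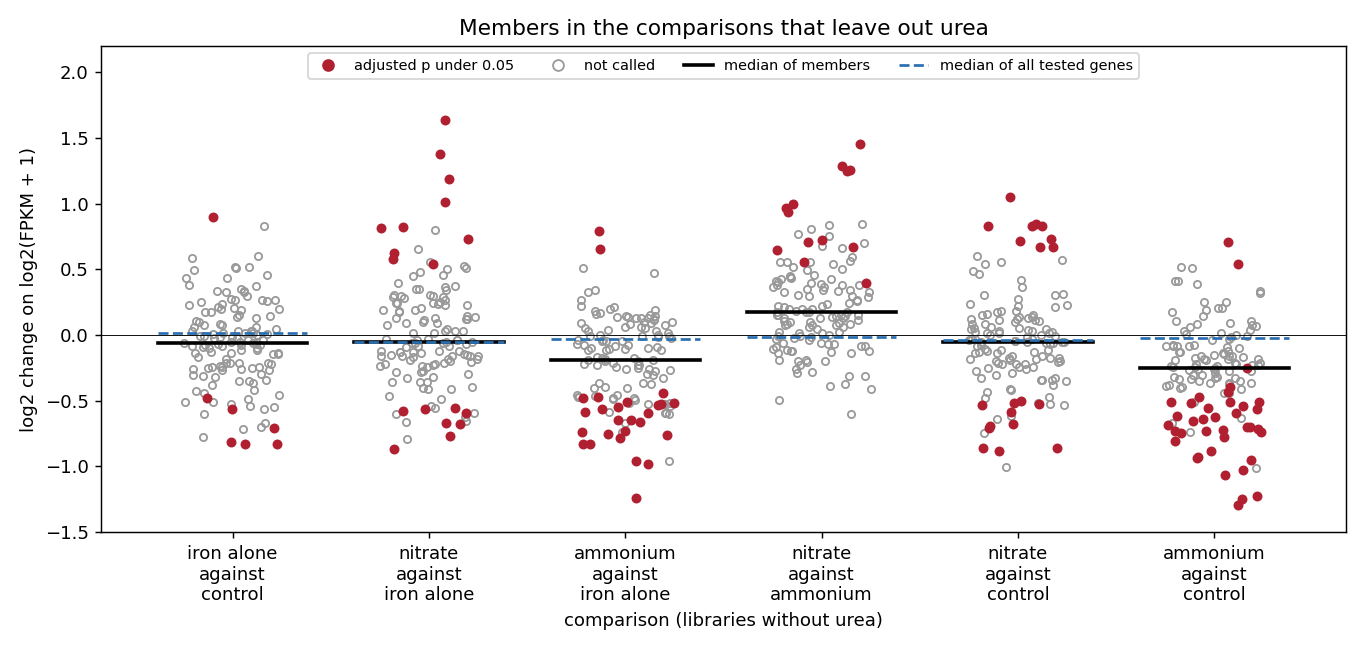
Log2 change of each of the 135 members in the 6 comparisons between regimes without urea, with members at an adjusted p under 0.05 filled. The urea libraries entered the p-values through the shared estimate of spread. The median of members (solid bar) lay below that of all tested genes (dashed bar) for ammonium against iron alone and against control, at -0.19 and -0.25, and above it for nitrate against ammonium, at 0.17.

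By the chromosome number in their identifiers, members lay on all 12 chromosomes. Chromosomes 1 and 2 held 18 each, chromosome 6 held 15 and chromosome 5 held 5. As a share of the genes of 5 FPKM or more on a chromosome, members made up between 0.536% on chromosome 5 and 1.31% on chromosome 11, against 0.982% over all. In 5 pairs the members stood within 3 rows of each other when the table was ordered by identifier, and 3 of these pairs were direct neighbours. Over the 12 libraries without urea the log2 values of the 5 pairs correlated at -0.25 to 0.40.

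Applied to the other regimes with all libraries and FPKM as deposited, the same rule gave 62 for nitrate, 48 for control, 16 for iron alone and 12 for ammonium as genes lowest in 1 regime alone, against 135 for urea. Genes highest in 1 regime numbered 255 for urea, 206 for control, 160 for nitrate, 71 for iron alone and 33 for ammonium. This order of the regimes changed with the settings. With a gap of at least 1, control and nitrate had 24 lowest genes each and urea 16. Without control replicate 1 or iron-alone replicate 3, control had 289 and 267 highest genes and urea 254 and 258. In the first of these, control had fewer libraries than urea to meet the condition of no overlap, which made it easier for control.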

How the data were processed

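Tomato roots from 5 nutrient regimes were analysed with 3 libraries each. The authors deposited a single table of FPKM by gene. HISAT2 is the aligner named by the submitters' processing notes (per the labels). Its version, the build and the FPKM software are not given in the sources used here. Columns were matched to libraries by name. FPKM does not correct for RNA composition, and the unknown absolute depth allows no counting interval. Relative depth came from modal ratios of low values, with all 105 library pairs within 0.05 (log2).

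The members, gene lists and tests were chosen with earlier results of these data known. Means per regime were fitted with limma 3.58.1 under R 4.3.3 over the 15 libraries (eBayes with a trend) on log2(FPKM + 1), two-sided, over 18889 of 34075 genes (55.4%). A log2 change on this scale understates low genes. The fit and the rule were tested on simulated data with equal spread in all regimes. This does not cover the members, which were most spread with urea. Alternatives covered pseudocount, filters, scaling, the libraries fitted, a replicate block and each library left out.

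The gene table available here, of assembly SLM_r2.1, matched 0 identifiers, so gene lists by product name and promoter motifs were not run. The rule for named genes (largest gaps, highest levels, largest called changes and the edges of the rule) was shortened for this reason to 2 genes per kind, and to 1 at each edge.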

Additional observations from a re-analysis of the deposited data

How the results depend on the processing

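The set itself depends on the gap and on single urea libraries. A gap of at least 1 left 16 genes, 7 of them with ammonium next lowest. Leaving out 1 library gave 87 to 222 genes, with ammonium next lowest in 39 to 119. Both ends came from leaving out a urea library, which also eases the condition of no overlap. Dividing by size factors kept 91 of the 135 members, quantile normalization 96 and equal FPKM totals 122, and 89 met the rule under all 3. A pseudocount of 0.1 gave 180 genes. The recounts of ammonium as next lowest, and of the rule in the other regimes, were chosen after seeing the data. Ammonium was next lowest in 43.8% (gap of at least 1) to 56.1% (pseudocount of 0.1) of the genes selected.

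Over single libraries left out, the members called numbered 19 to 24 for ammonium against control, 9 to 18 for ammonium against iron alone, 1 to 8 for iron alone against control, 11 to 17 for nitrate against control, 12 to 14 for nitrate against iron alone and 9 to 13 for nitrate against ammonium. The members' excess over the share of all genes called was lost in 4 of these fits for ammonium against control, 2 for ammonium against iron alone and 1 (without nitrate replicate 1, 8.89% against 11.0%) for nitrate against iron alone. For nitrate against ammonium these fits called 6.67% to 9.63% of members and 4.45% to 5.89% of all genes. The shares were 0.741% to 5.93% and 2.83% to 7.31% for iron alone against control. For nitrate against control they were 8.15% to 12.6% and 10.7% to 13.8%. With all libraries, ammonium against control called 28.1% of members and 26% of tested genes of 5 FPKM or more. Testing only genes with a mean of at least 5 FPKM gave 28.1% against 28.5%, with 26.7% against 14% lower with ammonium. Nitrate against iron alone called 13.3% of members and 14.8% of tested genes of 5 FPKM or more. With all libraries, such genes were called more often than all genes tested in all 6 comparisons. Fits to fewer libraries were set only against all genes tested. For nitrate against ammonium the count rose to 27 with the 12 libraries without urea and to 20 with only these regimes fitted. Fitted to these 12 libraries, ammonium against control called 29.6% of members and 19.8% of all genes, and ammonium against iron alone 24.4% and 13.1%. Nitrate against iron alone called 20% and 11.2%, nitrate against control 21.5% and 15.1% and iron alone against control 6.67% and 5.74%. The cause of these moves was not tested. With the replicate number as a block the counts were 37, 23, 7, 22, 18 and 13 in the order of the sentence on single libraries. In that order the members' shares were 27.4%, 17%, 5.19%, 16.3%, 13.3% and 9.63%. The shares of all genes were 20.9%, 13.5%, 6.69%, 15.6%, 11.7% and 7.04%. The numbers did not pair the libraries: deviations of same-numbered libraries correlated at -0.11 to 0.14, over 0.1 in 3 of 30 pairs, and 5 of 15 libraries correlated best with their own number. Of 336 values of named genes under alternatives, 54 fell short of the threshold and 0 changed direction.

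With 3 libraries per regime and unknown absolute depth, small changes in low genes are not detectable.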
